A study of Mus musculus with 2 samples.

Results

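The phagocyte NADPH oxidase is described here through 6 genes, Cybb, Cyba, Ncf1, Ncf4, Rac1 and Rac2, taken by symbol from a table of 12860 genes, and all 6 were present in it. The table comes from unsorted whole bone marrow of 1 P95H mouse and 1 WT mouse, so there are 2 groups of 1 library. The P95H mouse was a 14-week female with the Srsf2 P95H change on 1 allele (KI/+), and the WT mouse was a 12-week male with unchanged Srsf2. Both were on the C57BL/6 background, both carried R26CreERT2, a tamoxifen-activated Cre recombinase at the Rosa26 locus that is active in most tissues, and both received tamoxifen in vivo. Genotype therefore cannot be told apart from sex, age or the single animal, and a difference has no replicate check. Srsf2 encodes a splicing factor, and the comparison asks how gene expression in the marrow differs with the P95H change on 1 allele. Counts per gene do not show that base change, so they cannot check the genotype labels.

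The oxidase is the enzyme by which neutrophils, monocytes and macrophages make superoxide from oxygen and NADPH during the respiratory burst, and its loss in people causes chronic granulomatous disease. Cybb (NOX2) and Cyba together form the membrane cytochrome that carries the electrons. Ncf1 and Ncf4 belong to the cytosolic complex that joins it on activation, and Rac1 and Rac2 are small GTPases, of which Rac2 is made mainly in blood cells and Rac1 in nearly all cells. Cybb, Cyba, Ncf1 and Ncf4 are made most in granulocytes, monocytes and macrophages, though some lymphocytes make them too.

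Promoter windows of the 2 chains of the cytochrome are shown because these partner proteins form 1 complex and their windows differ in the motifs searched. They are RefSeq windows of build GRCm38.p6, 250 bases before to 50 bases after the gene start, printed 5′ to 3′ on the gene's strand. The window of Cybb is chrX:9469275-9469574 (minus strand) and that of Cyba is chr8:122432891-122433190 (minus strand). Capitals mark GAGGAA (the core of sites for PU.1, the myeloid transcription factor encoded by Spi1), CCAAT, and the Ets-IRF composite motif (a joint site for Ets and interferon regulatory factors), each searched on both strands.
Cybb: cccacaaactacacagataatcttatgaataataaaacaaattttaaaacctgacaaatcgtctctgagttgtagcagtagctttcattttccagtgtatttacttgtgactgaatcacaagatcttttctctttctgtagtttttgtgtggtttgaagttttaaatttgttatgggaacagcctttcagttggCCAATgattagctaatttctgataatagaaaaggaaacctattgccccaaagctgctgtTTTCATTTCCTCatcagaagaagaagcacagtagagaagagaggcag
Cyba: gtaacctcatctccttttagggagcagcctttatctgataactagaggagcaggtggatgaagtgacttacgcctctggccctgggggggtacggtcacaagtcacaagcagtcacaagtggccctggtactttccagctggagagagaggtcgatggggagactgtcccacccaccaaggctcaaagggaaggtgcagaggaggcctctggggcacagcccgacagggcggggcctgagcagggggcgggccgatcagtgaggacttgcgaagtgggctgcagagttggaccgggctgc
In the Cybb window, CCAAT lay at bases 195 to 199 counted from the 5′ end. The joint motif at bases 254 to 263 and the PU.1 core at bases 260 to 265 both lay on the reverse strand and overlapped. Neither the Cyba window nor that of Ncf1, the third member matched in the table, held any of these letters. Over all 32851 promoter windows, 28.3% held GAGGAA, 37.4% held CCAAT and 2.72% held the Ets-IRF composite. A match of letters is a description and shows no binding. The lack of a match in such a window does not show that a gene lacks these sites.

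Reads per library were deep and close to each other, with 42366695 counts over the listed genes in P95H and 44733445 in WT. Values below are raw counts and CPM, counts scaled by an adjusted library size, as the authors deposited both. Each ratio is P95H CPM over WT CPM with its 95% exact counting interval, which covers counting error only and not the spread between mice. A difference is the P95H value less the WT value, both as log2(CPM + 1). In bulk marrow, more cells of a type and more RNA per cell cannot be told apart. Every gene in the table has over 1 CPM in at least 1 library, so the presence of a marker gene there is fixed by that limit.

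All 6 subunit genes were higher in the P95H marrow, by 1.20-fold for Rac1 to 1.64-fold for Cybb. The median difference was 0.61, against -0.00 over all 12860 genes. None of the 6 reached 2-fold, which 1.76% of all genes did on the higher side and 2.10% on the lower side. At 1.5-fold, Cybb, Ncf1, Ncf4 and Cyba passed (4 of 6) and Rac2 and Rac1 did not, while 7.05% of all genes passed. That count rests on the authors' scaling: with plain totals of counts 0 of 6 passed (3.89% of all genes), and likewise 0 of 6 with totals that leave out haemoglobin and the top genes (4.90%). Abundant genes tended to be higher in this library: of 950 genes with at least 200 CPM in a library, a limit chosen after the values were seen that all 6 members exceed, 20.2% passed 1.5-fold and the median was 0.17. Of those abundant genes 68.0% lay above 0, against 49.7% of all genes. The counting interval lay wholly above 1 for all 6 members and for 34.1% of all genes.

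Cybb, the catalytic chain through which electrons reach oxygen, had 89234 counts in P95H and 65630 counts in WT. This was 2248 CPM in P95H against 1371 CPM in WT, so the ratio was 1.64 (1.62 to 1.66) and the difference 0.71. It showed the largest difference of the 6, and 573 of all genes (4.46%) had a larger one. Cybb is X-linked and the mice differed in sex, so X-linked genes were set beside it. The 367 X-linked genes in the table had a median difference of 0.02 and the 12141 autosomal genes one of -0.01. At least 1.5-fold higher were 6.54% of X-linked genes and 7.02% of autosomal genes. Values over many X-linked genes cannot show whether sex bears on Cybb itself, which was not tested.

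Cyba, the partner chain that stabilises Cybb in the membrane, had 15768 counts in P95H and 12515 counts in WT. Its level was 397 CPM in P95H and 261 CPM in WT (ratio 1.52, 1.48 to 1.56, difference 0.60). Both chains of the cytochrome were thus higher in the P95H library, Cybb by slightly more. Within each library there were 5.66 Cybb reads per Cyba read in P95H and 5.24 in WT, and the P95H ratio over the WT ratio was 1.08 (1.05 to 1.11). This quantity depends neither on gene length nor on how the libraries were scaled.

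Ncf1, the organiser that carries the cytosolic complex to the membrane once it is phosphorylated, had 49583 counts in P95H and 38601 counts in WT. That was 1249 CPM in P95H and 806 CPM in WT, with a ratio of 1.55 (1.53 to 1.57) and 0.63 as the difference. Ncf4, whose PX domain binds the phosphoinositide of phagosome membranes, had 16217 counts in P95H and 12750 counts in WT. Its CPM was 409 in P95H and 266 in WT, giving a ratio of 1.53 (1.499 to 1.57), or 0.62 as a difference. These cytosolic subunits kept nearly the same proportion to each other, with 3.06 Ncf1 reads per Ncf4 read in P95H and 3.03 in WT. The ratio of these ratios was 1.01 (0.983 to 1.04), so any difference between them was not detectable beyond counting error.

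Rac2, the GTPase that in blood cells switches the assembled oxidase on, had 49509 counts in P95H and 41671 counts in WT. Its level was 1247 CPM in P95H against 870 CPM in WT, giving a ratio of 1.43 (1.41 to 1.45) and 0.52 as the difference. Rac1, its widely made paralogue, had 11252 counts in P95H and 11334 counts in WT, the only member with fewer raw reads in P95H. After the authors' scaling it had 283 CPM in P95H and 237 CPM in WT, so the ratio was 1.20 (1.17 to 1.23) and the difference 0.26, and 22.3% of all genes had a larger one. There were 4.40 Rac2 reads per Rac1 read in P95H and 3.68 in WT, a ratio of ratios of 1.20 (1.16 to 1.23).

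**Figure D1:**
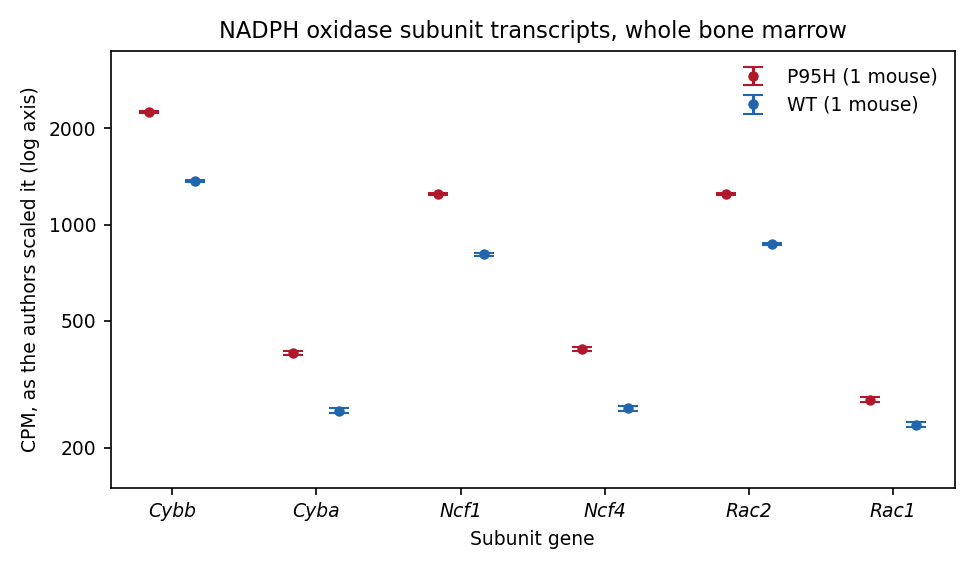
Levels of the 6 oxidase subunit genes in CPM on a log axis, P95H (red, left) and WT (blue, right) of 1 mouse each, with exact 95% counting intervals that are about as small as the points. In each gene the P95H point lies above the WT point, by most for Cybb (2248 against 1371 CPM) and by least for Rac1 (283 against 237 CPM).

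How far the 6 genes differed from each other was read from the 15 pairs, each as the ratio of raw counts in P95H over the ratio in WT. The interval held 1 for 3 pairs, which were the 3 that can be formed from Cyba, Ncf1 and Ncf4. For Cyba over Ncf1 it was 0.981 (0.955 to 1.01) and for Cyba over Ncf4 0.991 (0.958 to 1.02). Cybb was higher against each other member, by 1.06 times (1.04 to 1.08) against Ncf1 and 1.37 times (1.33 to 1.41) against Rac1. Rac1 was lower against each other member, and all 5 of its pairs excluded 1. Rac2 lay between, with Ncf1 over Rac2 at 1.08 (1.06 to 1.10) and Cyba over Rac2 at 1.06 (1.03 to 1.09). These intervals are for counting alone, and with 1 mouse per genotype the spread of such ratios between mice is unknown.

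**Figure D2:**
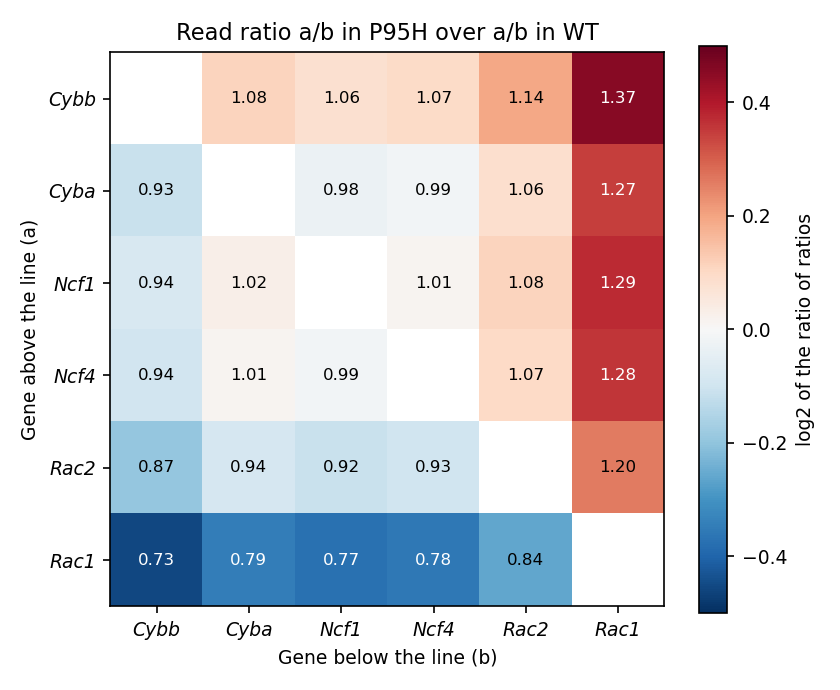
Ratio of the reads of gene a (rows) to those of gene b (columns) in P95H over the same ratio in WT, for all pairs of the 6 genes, printed in each cell and coloured on a log2 scale, with each pair shown both ways round. The block of Cyba, Ncf1 and Ncf4 stays within 0.98 to 1.02, while the column of Rac1 reaches 1.37 for Cybb.

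The deposited scaling adds to these differences. A scaling multiplies a whole library by a single factor and so shifts all genes nearly alike. Setting counts against plain totals of the listed genes moved the median of all genes by -0.17. The members then lay between 0.07 (Rac1) and 0.52 (Cybb). Because all genes shift together, the order of the members and their difference relative to the median of all genes are nearly fixed in advance. Neither is a check on the scaling. Over all scalings and pseudocounts tried, that relative difference was 0.70 to 0.72 for Cybb, 0.62 to 0.64 for Ncf1, 0.60 to 0.62 for Ncf4, 0.59 to 0.61 for Cyba, 0.50 to 0.52 for Rac2 and 0.25 to 0.26 for Rac1.

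**Figure D3:**
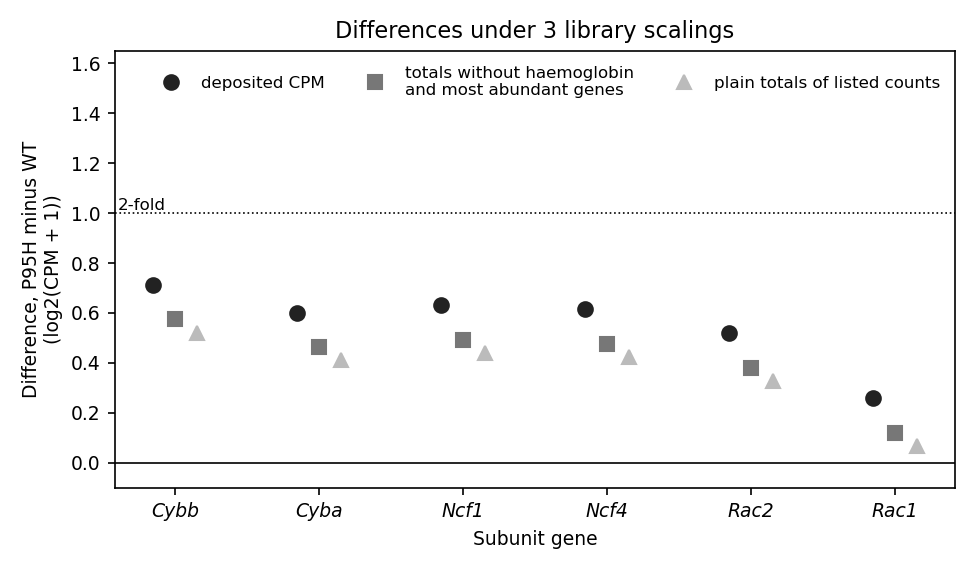
Difference of each subunit gene, P95H minus WT, in log2(CPM + 1), with CPM as deposited (circles), from totals that leave out haemoglobin and the 20 top genes of each library (squares) and from plain totals (triangles); the dotted line marks 2-fold. Each gene stays above 0 and below 2-fold in all 3, and the plain totals bring Rac1 to 0.07.

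Levels of different genes were compared per kilobase, with the length of the APPRIS principal transcript of each gene in GENCODE M21. On this scale Cyba stood at 534 CPM per kb in P95H and 351 in WT, Cybb at 473 in P95H and 288 in WT, Ncf1 at 459 in P95H and 296 in WT, and Rac2 at 411 in P95H and 286 in WT. Ncf4 was lower, at 279 CPM per kb in P95H and 182 in WT, and Rac1 lowest, at 68.2 in P95H and 56.9 in WT. With the union of all exons as length, chosen after the data were seen, the leading gene was Rac2 (402 CPM per kb in P95H, 280 in WT), while Ncf4 (202 in P95H, 132 in WT) and Rac1 (63.0 in P95H, 52.6 in WT) kept the last places. The order among the leading 4 genes therefore depends on the length used. The low level of Rac1 carries a limit, because its transcript overlaps that of Daglb, a lipase gene on the opposite strand. Of 4085 stretches of 75 bases in the Rac1 transcript, 2235 (54.7%) also occur, on the opposite strand, in annotated Daglb transcripts, and the strand setting of the authors' counting is not stated in the labels. Daglb had 1467 counts in P95H and 1573 in WT, a ratio of 1.12 (1.05 to 1.21). Rac1 and Rac2 shared 0 such stretches with each other, and Cybb, Cyba and Ncf4 shared 0 with any other annotated gene. Ncf1 shared 2.95% with Gtf2ird2, its neighbour on the opposite strand, which had 378 counts in P95H and 633 in WT.

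The 6 genes together took 0.547% of all counts in P95H (exact 95% interval 0.544 to 0.549) and 0.408% in WT (0.406 to 0.410). The neutrophil markers listed here mostly had larger differences than the oxidase genes. All 21 neutrophil markers, which hold none of the 6, were higher in P95H, with a median of 0.99 and a range of 0.68 to 2.65. At least 2-fold higher were 10 of them, against 1.76% of all genes. Like the other lists, this one was chosen with earlier results of these data known. Neither its direction nor the size of its differences beside the members is therefore an independent result. The 21 took 10.5% of counts in P95H and 6.13% in WT. Of these 21, 20 had a larger difference than Cybb and all 21 a larger one than each other member. Stfa2, a stefin protease inhibitor, had 32.1 CPM in P95H and 4.26 in WT, and the receptor gene Mrgpra2b had 48.2 CPM in P95H and 10.1 in WT. Per 100 reads of these markers there were 5.23 oxidase reads in P95H and 6.65 in WT, a ratio of 0.786. A few very abundant genes hold most of these marker reads, so this ratio mainly reflects them. Without haemoglobin and the 20 top genes of each library, the markers left took 1.61% of remaining counts in P95H and 0.882% in WT.

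The median of the oxidase genes (0.61) lay close to that of the promyelocyte markers and above that of the monocyte markers. The 9 promyelocyte markers had a median of 0.55 and a range of 0.17 to 0.88, all of them higher in P95H and none by 2-fold, led by Fcnb (442 CPM in P95H, 240 in WT) and Ctsg (296 in P95H, 183 in WT). They took 0.402% of counts in P95H and 0.321% in WT. Per 100 reads of them there were 136 oxidase reads in P95H and 127 in WT, a ratio of 1.07. The 19 monocyte and macrophage markers had a median of 0.21, 12 of them above 0 and 1 at least 2-fold higher. That gene was Cd14, a co-receptor for bacterial lipopolysaccharide (507 CPM in P95H, 102 in WT), and Ly6c2 of inflammatory monocytes had 1050.4 CPM in P95H and 648 in WT. The other 7 lay below 0, the lowest being Klf4 (106 CPM in P95H, 141 in WT) and Adgre1 (47.5 in P95H, 60.1 in WT). The 19 took 0.332% of counts in P95H and 0.257% in WT. Per 100 reads of these there were 165 oxidase reads in P95H and 159 in WT, a ratio of 1.04. Without Cd14, left out after its value was seen, there were 192 in P95H and 166 in WT, a ratio of 1.16. The part of cell composition in the oxidase differences was not tested, since nothing in unsorted marrow assigns a read to a cell.

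The medians of the eosinophil, lymphocyte, erythroid and megakaryocyte markers were below 0, with 1 megakaryocyte marker, Gp1bb, as the exception among their genes (2.82 CPM in P95H, 2.00 in WT). All 10 eosinophil markers were below 0 (median -0.91, 3 at least 2-fold lower), among them the interleukin 5 receptor gene Il5ra (7.46 CPM in P95H, 20.3 in WT) and the ribonuclease gene Ear2 (253 in P95H, 603 in WT). All 14 B cell markers were below 0 (median -1.69, 12 at least 2-fold lower), among them Fcmr (8.29 CPM in P95H, 46.4 in WT) and Ms4a1 (11.6 in P95H, 51.6 in WT). Of the other lists, the 13 T and natural killer cell markers had a median of -0.55 (5 at least 2-fold lower), the 15 erythroid markers one of -0.58 (2 at least 2-fold lower) and the 11 megakaryocyte markers one of -0.35 (none). Of all genes, 2.10% were at least 2-fold lower. Among erythroid markers with at least 10 CPM in a library, Hba-a2 (792 CPM in P95H, 1781 in WT) and Car1 (87.2 in P95H, 177 in WT) had the largest absolute differences. Among such megakaryocyte markers, Ppbp (9.67 in P95H, 15.8 in WT) and Itga2b (18.5 in P95H, 23.8 in WT) did.

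Around the 6 genes, 8 lists of the oxidase pathway held 144 genes found in the table. Past 2-fold, 2 of them were higher in P95H and 0 lower, against 1.76% and 2.10% of all genes, and the other 142 stayed between. The 2 were G6pdx and Rhov, the second of which had 15.6 CPM in P95H and 4.11 in WT (ratio 3.79, 3.22 to 4.47). At 1.5-fold, 20 were higher (13.9%) and 12 lower, against 7.05% and 8.08% of all genes. With plain totals 4 were higher and 17 lower, against 3.89% and 13.4% of all genes, so which side holds more genes depends on the scaling. The median was 0.19 and 96 of the 144 lay above 0 (66.7%). Of all genes 49.7% lay above 0. Of genes with at least 200 CPM in a library 68.0% did, with a median of 0.17. At least 1.5-fold higher were 20.2% of those abundant genes. The counts above 0 and at 1.5-fold in the lists below are to be read beside these shares.

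Among other genes of the oxidase itself, 7 of 16 listed symbols were in the table, with a median of 0.24. That median is the value of Noxo1, which had only 1.26 CPM in P95H and 0.92 in WT. The list median was 0.089 with a pseudocount of 5, 0.18 with a limit of 10 CPM in a library and 0.070 with plain totals. Rap1b, a small GTPase related to the Rap1a that copurifies with the cytochrome, had 625 CPM in P95H and 459 in WT, and Rap1a itself 98.3 in P95H and 98.9 in WT. BC017643, now named Cybc1, encodes the chaperone that the cytochrome needs in order to reach the membrane. It had 37.2 CPM in P95H and 34.6 in WT, and its ratio of 1.07 (1.00 to 1.15) is not distinguishable from 1 by counting error. The proton channel gene Hvcn1, whose product balances the charge moved by the oxidase, was lower, at 151 CPM in P95H and 172 in WT (ratio 0.874, 0.846 to 0.904); B cells also express it.

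The enzymes that make the NADPH consumed by the oxidase included 1 of the 2 genes past 2-fold. G6pdx, glucose-6-phosphate dehydrogenase, the entry step of the pentose phosphate pathway, had 35092 counts in P95H and 18939 in WT. Its CPM was 884 in P95H and 396 in WT, a ratio of 2.23 (2.20 to 2.27), and it too is X-linked. Pgd, the second NADPH-forming enzyme of that pathway, had 421 CPM in P95H and 251 in WT, a ratio of 1.68 (1.64 to 1.72). Of 13 genes in this list 11 lay above 0, 3 passed 1.5-fold, and the median was 0.19. Rpia, of the non-oxidative branch, had 67.7 CPM in P95H and 68.7 in WT. G6pdx falls under 2-fold with plain totals, where none of the list passes.

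Genes that use or remove peroxide were split evenly. Of 24, 12 lay above 0 and 12 below, 3 passed 1.5-fold on the higher side and 4 on the lower, and the median was 0.00. Prdx5, a peroxiredoxin, had 680 CPM in P95H and 421 in WT, and the glutathione reductase gene Gsr 990.3 in P95H and 632 in WT. Epx, the eosinophil peroxidase, had 444 CPM in P95H and 841 in WT, and the mitochondrial thioredoxin reductase gene Txnrd2 20.2 in P95H and 36.6 in WT. Epx is also in the eosinophil list, which was lower throughout.

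The kinases and phospholipases upstream of assembly had a median of 0.31, with 21 of 29 above 0. At least 1.5-fold higher were 4 and at least 1.5-fold lower 2, against 7.05% and 8.08% of all genes. The highest was Fgr, a Src family kinase of myeloid cells, with 344 CPM in P95H and 173 in WT (ratio 1.98, 1.93 to 2.04). The lowest were the protein kinase C genes Prkce (9.65 CPM in P95H, 19.0 in WT) and Prkca (15.5 in P95H, 27.0 in WT).

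Genes that set the state of Rac had lower medians than the oxidase subunits. Of 20 exchange factors and partners, 15 lay above 0 with a median of 0.25, and none passed 1.5-fold on the higher side. Vav3 had 101 CPM in P95H and 69.2 in WT, Dock5 170 in P95H and 117 in WT, Vav1 210 in P95H and 161 in WT, and Dock2 559 in P95H and 491 in WT. Swap70 (46.3 CPM in P95H, 82.8 in WT), which B cells make abundantly, and Vav2 (10.03 in P95H, 16.9 in WT) were lower. Of 15 dissociation inhibitors and GTPase-activating proteins, 11 lay above 0 with a median of 0.21. Arhgdib, the inhibitor of blood cells that holds Rac in the cytosol, had 2527 CPM in P95H and 1767 in WT, a ratio of 1.43 (1.42 to 1.44) beside 1.43 (1.41 to 1.45) for Rac2. Arhgap9 had 171 CPM in P95H and 109 in WT, while Srgap3 had 5.49 in P95H and 10.9 in WT, and Bcr 35.8 in P95H and 47.8 in WT.

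Transcription factors known to act on oxidase genes showed no common direction, with 11 of 18 above 0 and a median of 0.06 that turns negative under other scalings. Spi1 (PU.1) had 360 CPM in P95H and 228 in WT, a ratio of 1.58 (1.54 to 1.62). Cebpb had 451 CPM in P95H and 264 in WT, a ratio of 1.71 (1.67 to 1.75). Cebpe, needed for late granulocyte maturation, had 148 CPM in P95H and 129 in WT, and Cebpa 39.4 in P95H and 40.9 in WT. Irf8, which directs monocyte and dendritic cell fate and is also made by B cells, was lower, at 84.4 CPM in P95H and 137 in WT (ratio 0.615, 0.590 to 0.641). Satb1, a chromatin organiser of lymphocytes, had 41.0 CPM in P95H and 63.2 in WT.

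**Figure D4:**
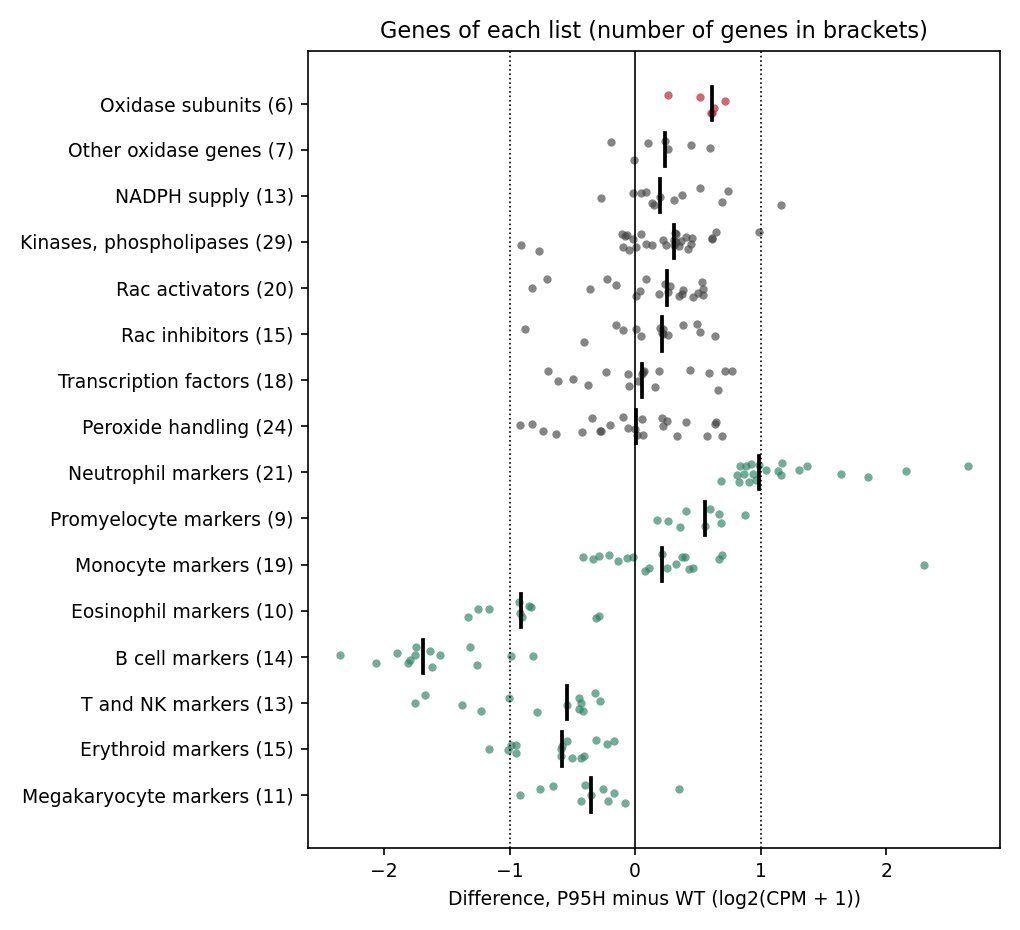
Difference of each gene, P95H minus WT in log2(CPM + 1), for the oxidase subunits (red), 7 pathway lists (grey) and the cell type markers (green), with the median of each list as a black bar and 2-fold as dotted lines. The subunits (median 0.61) lie below the neutrophil markers (median 0.99), near the promyelocyte markers (0.55) and far above the B cell markers (-1.69).

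Genes nearest to each member were found by Euclidean distance of log2(CPM + 1) over the 2 libraries, which is a likeness of level and of difference in only 2 values. Nearest to Cybb were the neutrophil collagenase gene Mmp8 (2320 CPM in P95H, 1192 in WT, distance 0.21) and Mpo, myeloperoxidase (1985 in P95H, 1503 in WT, distance 0.22). Cyba lay nearest to Lrrfip1 and Lgals3 (distances 0.03 and 0.05), Ncf1 to Vim and Cap1 (0.05 and 0.08), and Ncf4 to Lamp2 and Lrrfip1 (0.04 and 0.05). Rac1 lay nearest to Rcsd1 and to Arhgdia (0.02 and 0.04), and Rac2 to H2-D1 and Mcl1 (0.04 and 0.14).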

How the data were processed

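Per the labels' protocols, total RNA of whole marrow was depleted of ribosomal RNA, prepared with a strand-keeping kit and read in pairs on 1 run. STAR 2.5.3a with build mm9, featureCounts, edgeR, cutadapt, Trim Galore and Picard 1.96 are listed, without roles, in the submitters' processing notes. The deposited table holds raw read counts per gene, named so in its header. The authors' CPM is a normalised signal: counts divided by an effective library size, 0.937 times the listed total in P95H and 1.07 times in WT (counts recovered within 0.01 for all 12860 genes). The authors' deposited log2 fold change and fold columns were not used.

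With 1 library per group no test was possible, and no p-value was computed. CPM ratios carry exact conditional binomial intervals, and pairs of genes exact conditional odds-ratio intervals (SciPy 1.17.1), at a 95% level. Intervals cover counting error only, not the spread between mice. No molecular identifiers are described, so copies of a fragment may count as separate reads. The intervals may therefore be too narrow even for counting error. Differences use a pseudocount of 1 CPM. Steps were tested on simulated data. Transcript lengths, overlaps and shared stretches came from GENCODE M21 (GRCm38), and chromosome names from RefSeq, which matched 12527 Entrez numbers; no coordinates were carried between builds.

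The members and lists were chosen with earlier results of these data known. Named genes are the 6 members, the 2 highest and 2 lowest genes of each pathway list with at least 10 CPM in a library, the 2 with the largest absolute difference of each marker list, the 2 nearest to each member in pattern, and Cybc1, Spi1, Cebpa, Cebpe, Irf8, Arhgdib, Vav1 and Dock2. No T or natural killer cell marker reached 10 CPM. Daglb and Gtf2ird2 were added after their values were seen. Alternatives were pseudocounts of 0.1 and 5, 4 other scalings, sizes of 1.5-fold and 4-fold and a limit of 10 CPM; the 1.5-fold counts under each scaling, the ratio without Cd14, the union of exons and the limit of 200 CPM were added after the data were seen. Gp1bb, Klf4, Adgre1, Noxo1, Mpst, Kctd17 and C1qtnf6 were named after their values were seen. Some genes and 1 list that this rule takes are not reported here, though the counts over all pathway genes include them.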

Additional observations from a re-analysis of the deposited data

How the results depend on the processing

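All 6 members stayed higher in P95H and under 2-fold with each pseudocount and scaling tried, and pseudocounts and both centrings moved none of their differences by more than its counting error. With plain totals the differences were 0.52 for Cybb, 0.44 for Ncf1, 0.42 for Ncf4, 0.41 for Cyba, 0.33 for Rac2 and 0.068 for Rac1 (median 0.42). With totals that leave out haemoglobin and the 20 top genes of each library (called trimmed totals; the median of all genes shifts by -0.13) they were 0.57, 0.49, 0.48, 0.46, 0.38 and 0.12 in the same order (median 0.47), and the share of counts held by the 6 was 0.734% in P95H and 0.528% in WT, by construction of a smaller total. At 1.5-fold 4 members passed on the higher side with the deposited CPM, both pseudocounts and both centrings, against 0 with plain totals and 0 with trimmed totals. Of the pathway genes, 1 was at least 2-fold higher and 6 lower with plain totals, and 4 were lower with trimmed totals. All genes shift to the lower side with these totals, and their 2-fold shares were not computed. Those 2-fold counts are therefore no result about the pathway. At 1.5-fold 20 were higher and 12 lower with the deposited CPM, against 7.05% and 8.08% of all genes. With plain totals 4 were higher and 17 lower (3.89% and 13.4% of all genes). With trimmed totals 8 were higher and 14 lower (4.90% and 12.5% of all genes). At 4-fold 0 were higher. The median of the transcription factors was -0.13 with plain totals and -0.078 with trimmed totals, and that of the peroxide genes -0.18 and -0.13. No paired analysis was possible because each genotype has 1 library. Depth is no limit for the 6 members, which hold at least 11252 counts each, whereas the number of mice is: the spread between animals is unknown. Reads of Rac1 that overlap Daglb remain uncertain.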

Other observations

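Ncf4 and Rac2 lie on the same chromosome (15), with 16 RefSeq genes between them, of which 7 were in the table; these neighbours were chosen after their values were seen. Of the protein-coding ones, Csf2rb2 and then Csf2rb follow Ncf4, and Csf2rb encodes the signalling chain shared by the receptors for GM-CSF, interleukin 3 and interleukin 5. Csf2rb had 11551 counts in P95H and 6102 in WT, or 291 CPM in P95H and 127 in WT, a ratio of 2.28 (2.21 to 2.36). Csf2rb2, its mouse paralogue, had 21.7 CPM in P95H and 13.5 in WT, a ratio of 1.60 (1.45 to 1.78). Tst, a mitochondrial sulfurtransferase gene, had 18.9 CPM in P95H and 10.4 in WT. Il2rb, a receptor chain of T and natural killer cells from the same stretch, was lower, at 6.37 CPM in P95H and 14.7 in WT. The rest of the 7 differed little: Mpst had 41.9 CPM in P95H and 40.1 in WT. Kctd17 (1.44 CPM in P95H, 1.21 in WT) and C1qtnf6 (0.88 in P95H, 1.15 in WT) had few reads. The genes of the stretch thus shared no common direction.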
